A study of Mus musculus with 9 samples.

Results

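G1E-ER4 cells kept for 24 h in estradiol were compared with the parental G1E line by PRO-seq, a run-on assay that maps RNA polymerase in the act of transcription. The libraries were chosen by their labels alone, and the comparison uses 4 of the 9 libraries of the study, 2 of G1E-ER4 at 24 h and 2 of G1E. Both lines are mouse red cell progenitor lines. The 24 h group is G1E-ER4, labelled as G1E that expresses the fusion GATA1-ER, plated in fresh medium with 100 nM estradiol for 24 h. G1E-ER4 without estradiol (0 h, 3 libraries) is the same line before induction, and it was set beside both groups to show which late changes also hold against the parental line and which do not. G1E is the parental line, not treated, and the labels leave its genotype blank. As background, G1E was derived from mouse embryonic stem cells with a disrupted Gata1 gene, and GATA1-ER joins GATA1 to the hormone-binding domain of the oestrogen receptor, and estradiol turns the fusion on. The growth medium of both lines held serum, epoetin (a form of erythropoietin) and kit ligand. The 24 h and G1E groups differ in line, in the fusion protein and in estradiol, and from these 4 libraries alone the 3 cannot be told apart. The labels do not say whether the replicates came from separate cultures or whether each line is 1 clone. The fit used all 9 libraries, among them 2 of G1E-ER4 at 13 h in 100 nM estradiol, a group not compared here. The p-values therefore measure only the spread between libraries within these 4 groups.

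GATA1 is the transcription factor that drives progenitors into red cell maturation. It switches on the genes of globin, of haem and of the red cell membrane, and it takes over sites held by GATA2, the factor of the progenitor state, at genes such as Kit. Maturing red cells stop dividing, stop building ribosomes, fill with haemoglobin and clear their organelles by autophagy. A line that has been grown apart from its parent can also drift, so a difference between a matured derivative and its parent can mix maturation with differences that were there before it.

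The deposited tables hold raw read counts for 24391 gene bodies and for 42114 entries at dREG peaks (regions where polymerase initiates), with 11718 whole peaks and 30396 single-strand parts of peaks. Each entry is called an element here. Gene-body reads summed to 90192788 and 97942959 at 24 h, and to 96043832 and 37830789 in G1E. Element reads summed to 38108549 and 35633774 at 24 h, and to 43337185 and 15394427 in G1E, so the second G1E library is the shallowest of the 4 and limits the precision of every G1E level. On the leading principal component of the gene bodies, which carried 61.6% of the variance over the 9 libraries, the 24 h libraries lay at 107 and 118 and the G1E libraries at -110 and -113. Gata1 was read at 301 and 301 CPM at 24 h, against 214 and 164 CPM in G1E (0.67 ± 0.20 on the log2 scale, edgeR adjusted p = 0.0126). Since the site of the Gata1 disruption is not labelled, and reads were summed over the gene body, this level checks no label. The call on Gata1 was lost without G1E replicate 2 (adjusted p = 0.0987) and with scaling by total counts (adjusted p = 0.205). Esr1, the gene of the receptor whose hormone-binding part the fusion carries, was read at 20.8 and 30.3 CPM at 24 h, against 0.811 and 0.531 CPM in G1E. It separated the lines (5.204 ± 0.58) and did not pass the test between 24 h and 0 h (0.55 ± 0.42).

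Levels are CPM, read counts scaled to a common library total after TMM. Values after a gene name are edgeR's log2 fold changes ± SE, 24 h over G1E unless another pair is named, and a gene was called where its Benjamini-Hochberg adjusted p from edgeR's quasi-likelihood test was under 0.05. Of 13825 genes tested, 4271 (30.9%) were called higher at 24 h than in G1E and 4406 (31.9%) lower. Since 83.0% of all tested genes had 24 h and G1E levels that did not overlap, a lack of overlap alone says little about a gene. With 2 libraries a side and a change this wide, the split depends on the scaling. TMM scaling put the median of all genes at -0.03, and total counts put it at -0.39, with 2974 genes called higher and 5710 lower, so that 34.2% of the calls were higher instead of 49.2%. Directions below are relative to the TMM median, and the gene lists whose direction flips with total counts are named. In bulk libraries, fewer cells of a kind and less RNA per cell cannot be told apart.

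Most of the changes that followed estradiol also stood against the parental line. A late rise or late fall is a gene called between 24 h and 0 h, and it is said to hold where it was called the same way between 24 h and G1E. There were 4014 late rises (29.0% of the genes tested), and 3442 of them (85.7%) held. Of 4246 late falls (30.7%), 3393 (79.9%) held. Both comparisons use the same 24 h libraries, so these counts describe and do not test. Over the held rises the median difference was 1.30 against G1E and 1.19 against 0 h, with 0.09 between 0 h and G1E. Over the held falls it was -1.71 against G1E and -1.67 against 0 h, with -0.05 between 0 h and G1E.

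A smaller set of late changes could not be seen from the parental line. A late rise is called masked where 0 h was called lower than G1E and 24 h was not called higher than G1E, and a late fall is called masked in the mirrored case. There were 199 masked rises and 322 masked falls. The masked rises had a median of -0.17 against G1E, 1.02 against 0 h and -1.21 for 0 h against G1E. The masked falls had 0.32, -1.96 and 2.78 on the same 3 comparisons. The class is defined by calls in these comparisons, and the 0 h libraries enter the calls against 24 h and against G1E with opposite sign. These medians therefore describe and do not test. In 46 late rises and 85 late falls the call against G1E even ran the opposite way. These counts rest on single libraries: without G1E replicate 1 there were 88 masked rises and 171 masked falls, and there were 126 and 123 masked rises without 0 h replicate 2 and without 0 h replicate 3. A further 373 late rises and 531 late falls did not hold and had no opposing call between 0 h and G1E.

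Other differences from G1E were present before estradiol. Between 0 h and G1E, 1090 genes (7.88%) were called higher and 1325 (9.58%) lower. A difference at 24 h is called carried where 24 h was not called against 0 h and 0 h differed from G1E in the same direction. That was so for 307 of the genes higher at 24 h (7.19% of them) and for 574 of the genes lower at 24 h (13.0%). The carried higher genes had a median of 1.57 against G1E and 0.02 against 0 h, and the carried lower genes had -3.20 and -0.22. Without G1E replicate 1 the 881 carried genes became 465. Another 437 higher and 393 lower genes were called against G1E with no other call that puts them in one of these classes.

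**Figure D1:**
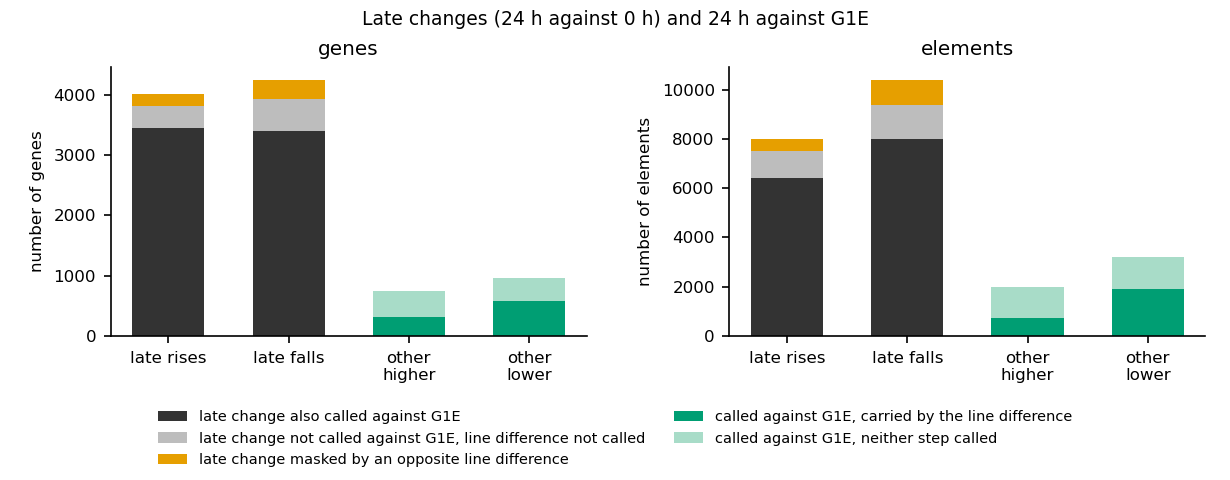
Stacked bars count the late rises and late falls by whether they also stood against G1E, and the other calls against G1E by whether 0 h already differed, for genes and for elements. Of the genes, 3442 of 4014 late rises and 3393 of 4246 late falls held, 199 and 322 were masked, and 307 higher and 574 lower calls were carried from before estradiol.

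Examples of 2 rises and a fall that held and of a masked fall are shown here with the sequence just before their start. Alas2, the enzyme that opens haem synthesis in erythroid cells, was read at 464 and 699 CPM at 24 h, against 3.26 and 0.918 CPM in G1E, with 0.655, 1.28 and 0.777 CPM at 0 h (8.03 ± 0.62, edgeR adjusted p = 4.15e-06). Cpa3, a carboxypeptidase of mast cells, was read at 0.0536 and 0.0248 CPM at 24 h, against 53.2 and 28.9 CPM in G1E, with 50.7, 33.2 and 76.6 CPM at 0 h (-10.00 ± 0.64, adjusted p = 1.46e-06). In both genes the 0 h libraries lay near G1E and far from 24 h, so these are a rise and a fall that held. Srxn1, sulfiredoxin, an enzyme that repairs oxidised peroxiredoxins, was read at 90.5 and 69.6 CPM at 24 h, against 0 CPM in both G1E libraries, with 36.1, 28.2 and 26.2 CPM at 0 h. It was at least 3769-fold higher at 24 h than in G1E, counted against 3 reads over both G1E libraries. On the log2 scale most of that gap lay between 0 h and G1E, while in CPM the larger gain came after 0 h. Sdc1, the cell surface proteoglycan syndecan-1, was read at 1.21 and 1.42 CPM at 24 h, against 0.330 and 0.266 CPM in G1E, with 24.4, 21.6 and 26.8 CPM at 0 h. It fell with estradiol (-4.20 ± 0.30 against 0 h) and was nevertheless higher at 24 h than in G1E (2.11 ± 0.32), which makes it a masked fall.

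The promoters of these 4 genes are printed as the 250 bases before the start on the gene's own strand, from RefSeq on build GRCm38.p6, which is not the build of the deposited counts (mm9). They lie at chrX:150547167-150547416 (plus strand), chr3:20242182-20242431 (minus strand), chr2:152105274-152105523 (plus strand) and chr12:8771146-8771395 (plus strand). Capitals mark the letters AGATAA or TGATAA, which GATA factors can bind, and TGACTCA, which AP-1 and related factors can bind, each searched on both strands.
Alas2: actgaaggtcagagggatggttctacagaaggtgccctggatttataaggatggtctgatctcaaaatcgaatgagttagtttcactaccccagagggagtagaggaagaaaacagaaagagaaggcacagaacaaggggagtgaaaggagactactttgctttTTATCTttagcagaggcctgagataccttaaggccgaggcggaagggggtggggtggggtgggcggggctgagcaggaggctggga
Cpa3: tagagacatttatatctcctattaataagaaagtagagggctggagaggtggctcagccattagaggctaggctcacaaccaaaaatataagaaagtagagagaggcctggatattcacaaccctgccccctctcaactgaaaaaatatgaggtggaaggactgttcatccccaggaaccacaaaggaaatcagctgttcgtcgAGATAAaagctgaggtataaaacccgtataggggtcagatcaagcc
Srxn1: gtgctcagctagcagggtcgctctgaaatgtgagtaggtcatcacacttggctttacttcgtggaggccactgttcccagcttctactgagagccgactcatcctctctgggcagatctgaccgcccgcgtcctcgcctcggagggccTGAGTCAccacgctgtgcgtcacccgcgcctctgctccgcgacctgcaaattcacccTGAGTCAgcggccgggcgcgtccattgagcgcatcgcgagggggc
Sdc1: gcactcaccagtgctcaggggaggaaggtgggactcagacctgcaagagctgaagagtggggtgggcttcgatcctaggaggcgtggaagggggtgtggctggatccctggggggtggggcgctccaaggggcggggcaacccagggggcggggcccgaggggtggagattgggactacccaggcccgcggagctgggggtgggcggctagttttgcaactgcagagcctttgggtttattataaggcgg
The Alas2 window holds AGATAA on the other strand from 86 bases before the start, and the Cpa3 window holds it on the gene's strand from 46 bases before the start. The Srxn1 window holds TGACTCA on the other strand at 102 and at 45 bases before the start, and the Sdc1 window holds none of the 3. Among 32851 promoter windows of the table, AGATAA stood in 9.99%, TGATAA in 7.94% and TGACTCA in 4.46%. One or both of the GATA motifs stood in 16.6% of these windows. Counted by gene, with a match in any of a gene's windows, the share was 12.2% of 10508 tested genes. It was 12.7% of the held rises, 11.7% of the held falls, 13.8% of the masked rises and 10.6% of the masked falls. It was 11.9% of the carried higher genes and 16.2% of the carried lower genes. A match says only that the letters are there.

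Globin genes were higher at 24 h than in G1E in each of the 6 that could be tested, beside 30.9% of all genes, with a median of 5.23. Hbb-b1, adult beta globin, was read at 4.69 and 10.1 CPM at 24 h, against 0 CPM in both G1E libraries, and was at least 348-fold higher against 3 reads over both G1E libraries. Hbb-b2 was read at 9.14 and 13.2 CPM at 24 h, against 0.491 and 0.0242 CPM in G1E (5.23 ± 0.77). Hbb-bt has the counts of Hbb-b2 in these 4 libraries and Hbb-bs nearly those of Hbb-b1, so the 6 genes are fewer separate measurements. Hbq1a and Hbq1b, theta globins, were also higher (4.95 ± 0.84 and 2.59 ± 0.78), and the call on Hbq1b was lost without G1E replicate 2 (adjusted p = 0.100). The alpha globins Hba-a1 and Hba-a2 are listed at 0 reads in all 4 libraries, and Hba-x, Hbb-y, Hbb-bh1 and Hbb-bh2 held too few reads to be tested.

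Haem synthesis was called higher in 13 of 14 genes, beside 30.9% of all genes, and each of the 13 had also risen between 0 h and 24 h. The median over the list was 1.65 against G1E, beside -0.03 over all genes, and 1.70 against 0 h. After Alas2 came Abcb10, a mitochondrial transporter of the pathway, at 1346 and 1134 CPM at 24 h, against 71.0 and 53.8 CPM in G1E (4.31 ± 0.20). Tmem14c, which moves the precursor protoporphyrinogen, was read at 444 and 513 CPM at 24 h, against 48.1 and 44.1 CPM in G1E (3.37 ± 0.19). Slc25a37, mitoferrin-1, the mitochondrial iron importer, was read at 496 and 558 CPM at 24 h, against 62.4 and 65.0 CPM in G1E (3.05 ± 0.17). For these 3 genes both 24 h libraries were far above both G1E libraries and the 0 h libraries lay close to G1E. Fech, which inserts iron to make haem, was higher by 1.97 ± 0.25, and the remaining genes by between 0.73 (Cpox) and 1.80 (Uros). The call on Cpox was lost with total-count scaling (adjusted p = 0.187), in the fit of 24 h and G1E alone (adjusted p = 0.0607), without G1E replicate 2 (adjusted p = 0.143) and without 24 h replicate 1 or 2 (adjusted p = 0.0857 and 0.0600). With total counts the list had 11 higher genes and 1 lower.

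The red cell membrane and skeleton list included held, masked and carried genes. Between 24 h and 0 h, 15 of 19 tested genes had risen and none had fallen past the test (with 29.0% and 30.7% over all genes). Against G1E, 11 were higher and 5 lower, beside 30.9% and 31.9% of all genes. At 0 h, 9 of the 19 were lower than in G1E, beside 9.58% of all genes. The median was 1.70 against 0 h, 0.99 against G1E and -0.82 for 0 h against G1E.

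Dmtn, dematin, which bundles actin in the skeleton, was read at 460.3 and 361 CPM at 24 h, against 1.002 and 1.33 CPM in G1E (8.49 ± 0.28). Slc4a1, band 3, the anion exchanger that anchors the skeleton, was read at 353 and 356 CPM at 24 h, against 5.48 and 1.01 CPM in G1E (6.70 ± 0.73), with 0.391, 0.994 and 1.08 CPM at 0 h. Sptb, beta spectrin, was read at 6244 and 5386 CPM at 24 h, against 267 and 191 CPM in G1E (4.67 ± 0.24). These 3 held by wide margins, as did Add1, an adducin (2.96 ± 0.17), and Ank1, ankyrin-1 (2.71 ± 0.18).

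Genes of this list that did not hold were chosen after their values were seen. Rhd, a Rh blood group protein, was read at 52.7 and 43.3 CPM at 24 h, against 46.1 and 34.6 CPM in G1E, with 16.7, 16.7 and 15.7 CPM at 0 h. Its 24 h and G1E levels overlapped (0.25 ± 0.21) although it had risen against 0 h (1.55 ± 0.19), and 0 h lay below G1E (-1.30 ± 0.19). Epb4.2, protein 4.2, which binds band 3, was read at 6.90 and 8.30 CPM at 24 h, against 29.9 and 18.5 CPM in G1E, with 2.73, 3.28 and 3.90 CPM at 0 h. It rose against 0 h (1.20 ± 0.27) and was lower than in G1E (-1.67 ± 0.31). Rhag, the Rh-associated glycoprotein, was read at 2.63 and 25.2 CPM at 24 h, against 234 and 178 CPM in G1E, with 28.1, 40.5 and 58.1 CPM at 0 h. It was lower than in G1E (-3.89 ± 0.80), did not pass the test against 0 h (-1.60 ± 0.70), and its 24 h libraries lay far apart from each other. Xk, Kel and Piezo1 were also lower than in G1E (-1.14, -1.23 and -1.37) with no call against 0 h. Without G1E replicate 1 the calls on Kel and Piezo1 were lost (adjusted p = 0.0666 and 0.0518), and that on Piezo1 also without the expression filter (adjusted p = 0.0860).

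Start elements were read for the same genes. The element at the start of Epb4.2 was read at 1.79 and 2.27 CPM at 24 h, against 10.2 and 3.38 CPM in G1E (-1.76 ± 0.48; element e3139). Rhd's start element was lower at 24 h than in G1E (-1.27 ± 0.35; element e6564), whereas its gene body was not called.

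**Figure D2:**
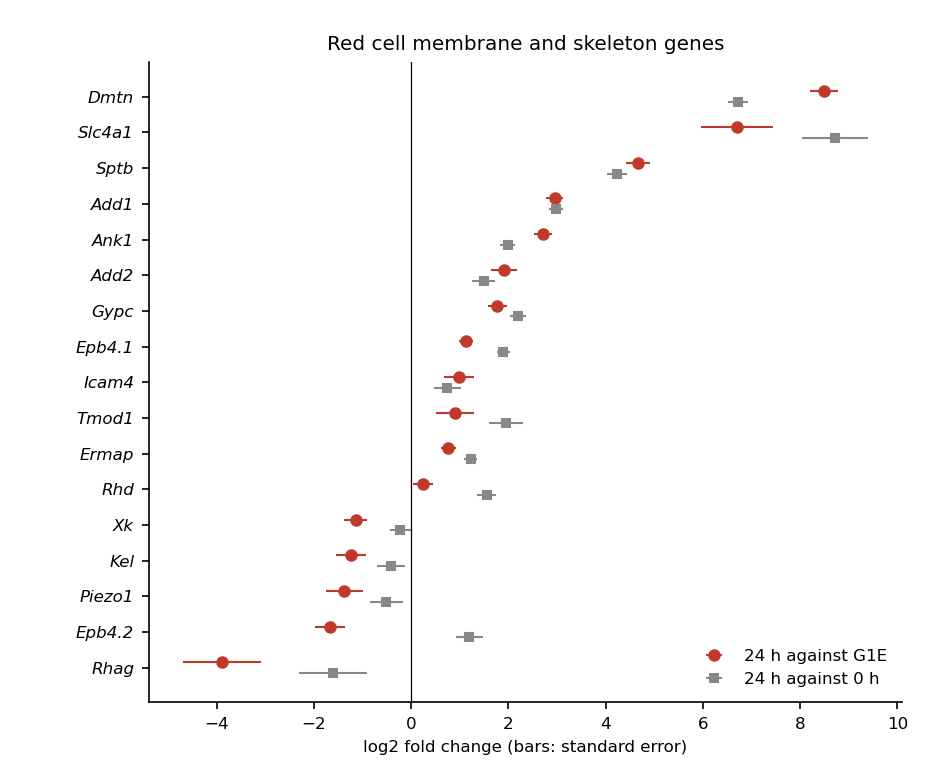
Log2 fold changes ± SE of 17 of the 19 tested genes of the red cell membrane and skeleton, for 24 h against G1E and for 24 h against 0 h. Dmtn, Slc4a1 and Sptb lie above 4 in both comparisons, while Rhd and Epb4.2 lie above 0 against 0 h and at or below 0.25 against G1E.

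The largest increases over G1E were mostly genes with few or no reads in G1E. Rragd, a Rag GTPase of the mTORC1 pathway, was read at 303 and 577 CPM at 24 h, against 0.130 and 0.0725 CPM in G1E, with 8.35, 8.90 and 15.99 CPM at 0 h (11.93 ± 0.63). Golim4, a Golgi membrane protein, was read at 102 and 131 CPM at 24 h, against 0.0901 and 0 CPM in G1E, with 57.0, 58.1 and 60.1 CPM at 0 h (10.85 ± 0.42). In Rragd and Golim4, as in Srxn1, the 0 h libraries stood well above G1E and well below 24 h, so the difference from the parental line had a part from before estradiol and a part from after it. Golim4 was 9.85 ± 0.40 higher at 0 h than in G1E and 1.000 ± 0.21 higher at 24 h than at 0 h, so on the log2 scale nearly all of its gap preceded estradiol.

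Slc52a3, a riboflavin transporter whose start lies near that of Srxn1 on chromosome 2 (bases 151825602 and 151931260, mm9), took the other course. It was read at 155 and 79.4 CPM at 24 h, against 0.0401 and 0.0725 CPM in G1E, with 0.0630, 0.0517 and 0.0619 CPM at 0 h (11.15 ± 0.46 against G1E, 10.91 ± 0.37 against 0 h). So the gap of Slc52a3 to G1E opened after estradiol, whereas most of that of Srxn1, on the log2 scale, was there at 0 h. Ptk6, a cytoplasmic tyrosine kinase, was likewise near 0 both in G1E and at 0 h and was read at 48.2 and 28.8 CPM at 24 h (9.51 ± 0.55). Nrl, a transcription factor best known from the retina, was read at 10.4 and 10.1 CPM at 24 h, against 0 and 0.0242 CPM in G1E, a ratio of 1447 (95% counting interval 259 to 57200.0, which covers counting error only). Cyp2c29, a cytochrome P450, was read at 2.09 and 2.06 CPM at 24 h, against 0.0100 and 0 CPM in G1E, a ratio of 293 (interval 52.2 to 11600.0).

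Among the largest increases, some genes had not risen with estradiol. Zfp449, a zinc finger gene, was read at 5.24 and 6.83 CPM at 24 h, against 0 CPM in both G1E libraries, with 7.87, 6.37 and 5.87 CPM at 0 h, and was at least 284-fold higher than in G1E. Tusc1, a candidate tumour suppressor, was at least 233-fold higher, at 5.81 and 4.06 CPM at 24 h, against 0 CPM in both G1E libraries, with 3.85, 3.89 and 3.60 CPM at 0 h. In both genes 24 h and 0 h differed little (-0.15 ± 0.31 and 0.39 ± 0.28) and the G1E libraries held no read, so the whole difference was carried. Foxd2os, a long noncoding RNA gene, was read at 4.17 and 2.60 CPM at 24 h, against 0 CPM in both G1E libraries, at least 159-fold higher, although it had fallen from 0 h (-2.12 ± 0.32). Gna12, a G protein subunit, was read at 63.3 and 65.9 CPM at 24 h, against 0.0801 and 0.0242 CPM in G1E (9.98 ± 0.31), with 55.8, 68.9 and 65.7 CPM at 0 h, and Zfp11 and Tm2d1 behaved alike, with ratios to G1E of 1336 (interval 239.5 to 52820.0) and 1129 (interval 386 to 5480.0).

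The largest decreases were mostly genes with few or no reads in either G1E-ER4 group. Wls, which carries Wnt proteins to the cell surface (start at base 159502659 of chromosome 3, mm9), was read at 0.0134 and 0.0124 CPM at 24 h, against 127 and 111 CPM in G1E, with 0.0126, 0.0517 and 0.0344 CPM at 0 h. With 2 reads at 24 h, it was lower by a ratio of 9491 (interval 2627 to 78380.0). Tbc1d19, Lonrf2 and Sytl5 were lower in the same way, since none exceeded 0.0687 CPM at 24 h or 0 h, while Tbc1d19 stood at 30.8 and 32.0 CPM in G1E, Lonrf2 at 28.001 and 12.6 CPM in G1E and Sytl5 at 65.0 and 72.4 CPM in G1E. Maged1, Hmx2 and Plekhf1 held 0 reads at 24 h and were at least 178-, 173- and 168-fold lower. None of these 7 genes was called between 24 h and 0 h, and each was called lower at 0 h than in G1E. Lincenc1, a long noncoding RNA gene of embryonic stem cells, was read at 0.348 and 0.434 CPM at 24 h, against 970.0 and 697 CPM in G1E, with 2.54, 1.69 and 1.25 CPM at 0 h (-11.05 ± 0.42). Its call also held against 0 h (-2.20 ± 0.33), but the larger step was between 0 h and G1E (-8.85 ± 0.31). Akap2, a kinase anchoring protein gene, was at least 226-fold lower with 0 reads at 24 h. It was read at 4.49 and 4.23 CPM in G1E, with 0.0504, 0.0387 and 0.0412 CPM at 0 h, and 0 h already lay far below G1E (-6.61 ± 0.47).

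Decreases that did come after estradiol had another shape, with no call between 0 h and G1E in the genes named here. Ranking by the smaller of the changes against G1E and against 0 h favours this shape. Adamts5, a secreted protease, was read at 0.0134 and 0.0619 CPM at 24 h, against 23.9 and 27.7 CPM in G1E, with 22.6, 22.7 and 25.6 CPM at 0 h (-9.33 ± 0.43). Rgs14, a regulator of G protein signalling, was read at 0.0670 and 0.0619 CPM at 24 h, against 14.9 and 18.4 CPM in G1E, with 24.7, 16.04 and 18.1 CPM at 0 h (-7.98 ± 0.43). Ceacam3 was read at 0 CPM in both 24 h libraries, against 3.53 and 3.12 CPM in G1E, at least 172-fold lower. At 0 h it was read at 1.25, 1.07 and 2.23 CPM, below both G1E libraries (-1.12 ± 0.42 for 0 h against G1E, not called). Clec4e, an innate immune receptor, was read at 0 CPM in both 24 h libraries, against 1.93 and 1.21 CPM in G1E, at least 81.3-fold lower. Its 0 h libraries lay apart from each other, at 4.47, 1.08 and 2.06 CPM.

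**Figure D3:**
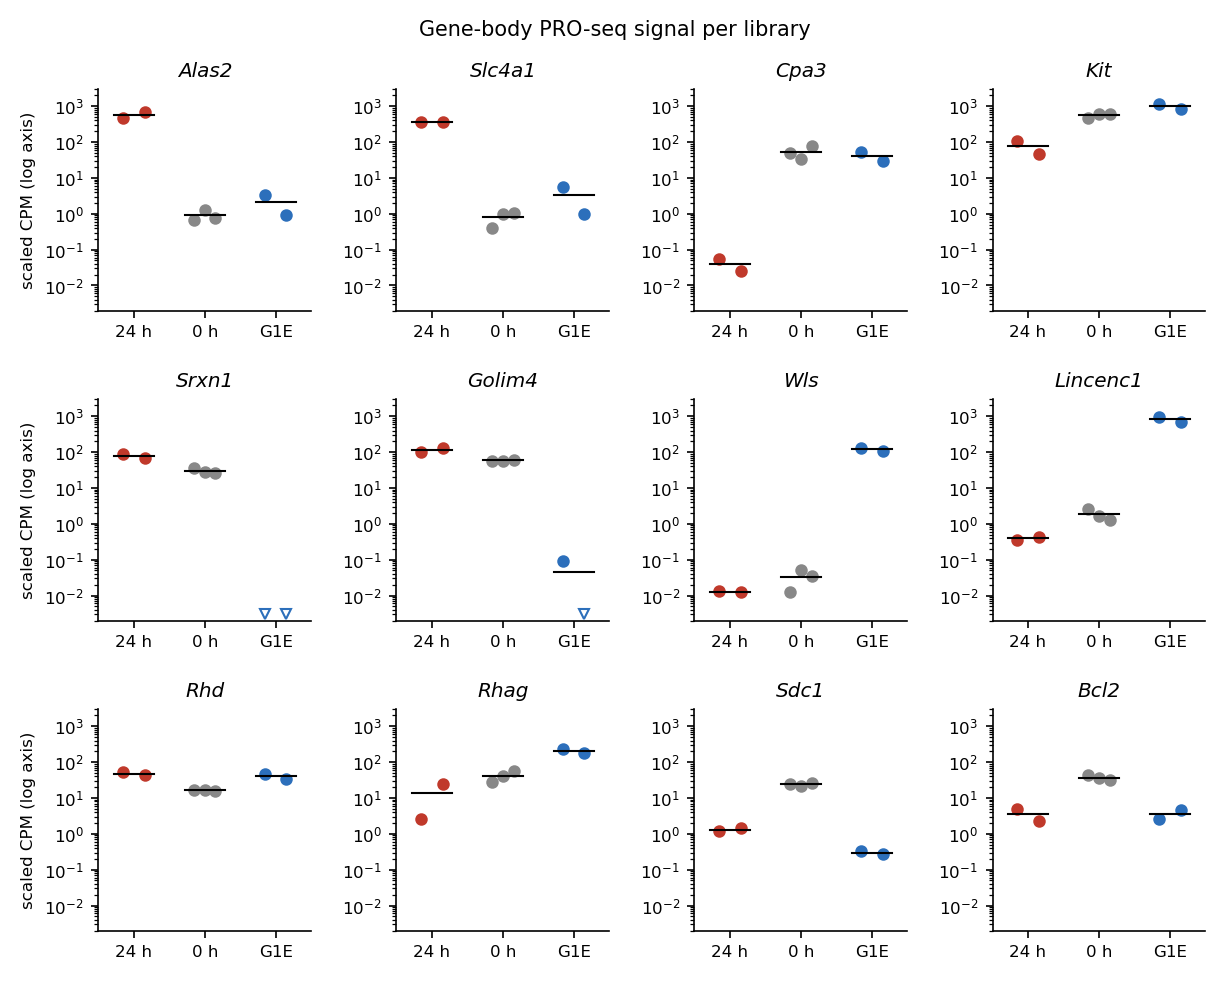
CPM of 12 genes in each library at 24 h, at 0 h and in G1E, on a log axis, with group means as lines and libraries at 0 reads as open triangles at the bottom. Alas2 and Slc4a1 stand high at 24 h alone and Cpa3 and Kit low at 24 h alone, Srxn1 and Golim4 are at or near 0 in G1E, Wls and Lincenc1 stand high in G1E alone, and Rhd and Bcl2 have 24 h and G1E side by side with 0 h apart.

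Transcription factors of the red cell programme were higher than in G1E in 8 of 15 genes and lower in 4, beside 30.9% and 31.9% of all genes. Their median was 0.67, and all 8 higher genes had also risen from 0 h. Klf13 was read at 682 and 517 CPM at 24 h, against 113 and 124 CPM in G1E (2.33 ± 0.24). Zfpm1, FOG1, the cofactor of GATA1, was read at 3275 and 2749 CPM at 24 h, against 1375 and 484 CPM in G1E, with 228, 315 and 354 CPM at 0 h. Its gain was 1.70 ± 0.39 over G1E and 3.33 ± 0.36 over 0 h, and the G1E libraries lay far apart from each other. Nfe2 (1.61 ± 0.27), Foxo3 (1.47 ± 0.22), Klf3 (1.20 ± 0.15), Klf1 (1.16 ± 0.22) and Lmo2 (1.09 ± 0.26) were also higher. Sox6 and Bcl11a, which repress embryonic and fetal globin genes, were lower (-3.56 ± 0.18 and -1.89 ± 0.34), and both had fallen from 0 h. Tal1, a partner of GATA1, was read at 397 and 325 CPM at 24 h, against 685 and 500.2 CPM in G1E, with 331, 375 and 352 CPM at 0 h. It was lower than in G1E (-0.72 ± 0.17) and did not differ past the test from 0 h (0.03 ± 0.15), so this difference was carried.

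Regulators of stem cells and progenitors were lower than in G1E in 9 of 13 genes and higher in 2, beside 31.9% and 30.9% of all genes. Their median was -1.48. Lyl1, a relative of Tal1, was read at 2.32 and 2.22 CPM at 24 h, against 182 and 128 CPM in G1E (-6.10 ± 0.23). Myb, which keeps progenitors dividing, was read at 13.9 and 8.67 CPM at 24 h, against 589.8 and 123 CPM in G1E (-4.99 ± 0.72). Kit, the receptor of kit ligand, was read at 104.6 and 46.9 CPM at 24 h, against 1173 and 841 CPM in G1E, with 474, 604 and 609 CPM at 0 h (-3.73 ± 0.37; -2.89 ± 0.35 against 0 h). Gata2 was read at 35.4 and 12.2 CPM at 24 h, against 308 and 147 CPM in G1E (-3.26 ± 0.52). Erg, an ETS factor, was read at 2.32 and 3.51 CPM at 24 h, against 68.5 and 61.1 CPM in G1E (-4.47 ± 0.68). For each of these 5 genes the G1E libraries lay clearly above the 24 h libraries, although the G1E libraries of Myb were themselves far apart. Fli1, another ETS factor, ran the other way at 528 and 172 CPM at 24 h, against 24.05 and 18.6 CPM in G1E, with 213, 163 and 128 CPM at 0 h (4.03 ± 0.48), and its 0 h level was already 2.97 ± 0.44 above G1E. Runx1 was the other higher gene (0.85 ± 0.22), and its call was lost with total-count scaling (adjusted p = 0.0891), without G1E replicate 2 (0.0538) and without 24 h replicate 1 (0.0826).

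Markers of mast cells and basophils were lower than in G1E in 4 of 8 tested genes and higher in 1, beside 31.9% and 30.9% of all genes. Their median was -4.60. With 2 genes without reads at 24 h set to their bound and Fcer1a left out, it was -2.89. Fcer1a is under 3 reads in both groups. Beside Cpa3, Il1rl1, the IL-33 receptor, was read at 0.549 and 0.235 CPM at 24 h, against 135 and 44.8 CPM in G1E (-7.85 ± 0.70). Gzmb, a granzyme, and Ms4a2, a chain of the IgE receptor, held 0 reads at 24 h and were at least 38.8-fold and 7.43-fold lower. Ms4a2 was read at only 0.190 and 0.0966 CPM in G1E, beside 3.01, 1.55 and 4.997 CPM at 0 h, so most of its fall with estradiol could not have been seen from the parental line. Hdc, which makes histamine, and Fcer1a, another chain of the IgE receptor, were chosen after their values were seen. Hdc was read at 0.924 and 0.768 CPM at 24 h, against 1.06 and 1.35 CPM in G1E, with 2.88, 2.13 and 3.24 CPM at 0 h, and Fcer1a held no read at 24 h and 1 read in G1E, with 0.113, 0.0646 and 0.261 CPM at 0 h. Both were called lower against 0 h and not against G1E. Srgn, the granule proteoglycan, which many blood cells make, was the higher gene at 112 and 32.8 CPM at 24 h, against 21.5 and 15.7 CPM in G1E (1.95 ± 0.45). The 13 listed markers summed to 113 and 34.2 CPM at 24 h, against 212 and 91.3 CPM in G1E, and Mcpt8 and Mcpt4 held no read in these 4 libraries.

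Markers of other blood lineages were mostly lower or not called. Their counts stand beside 30.9% higher and 31.9% lower over all genes. Of 10 tested megakaryocyte and platelet markers, 2 were higher than in G1E and 5 lower, and the 14 listed summed to 198 and 122 CPM at 24 h, against 202 and 191 CPM in G1E, with Gp1bb at 0. Tubb1, the tubulin of platelets, was read at 34.3 and 19.4 CPM at 24 h, against 0.851 and 0.749 CPM in G1E (5.06 ± 0.54). Itgb3, the platelet integrin beta-3, was read at 93.2 and 47.5 CPM at 24 h, against 14.8 and 10.05 CPM in G1E (2.495 ± 0.39). Pf4, platelet factor 4, was read at 0.0402 and 0.0372 CPM at 24 h, against 2.52 and 1.74 CPM in G1E (-5.74 ± 1.17), and that difference was carried. Granulocyte and monocyte markers summed to 0.308 and 0.310 CPM at 24 h, against 2.81 and 2.39 CPM in G1E, with Ctsg, Cebpa, S100a8 and S100a9 at 0 and 2 of 4 tested genes lower. Lymphocyte markers summed to 3.24 and 6.02 CPM at 24 h, against 21.3 and 26.8 CPM in G1E, with 1 of 7 tested higher and 3 lower. Most of that sum in G1E was Lck, a T cell kinase, at 0.831 and 1.13 CPM at 24 h, against 17.4 and 21.7 CPM in G1E (-4.31 ± 0.40). The part of these other-lineage genes in the results above was not tested.

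Ribosome assembly was lower throughout, with 23 of 23 genes lower than in G1E and the same 23 fallen from 0 h, beside 31.9% and 30.7% of all genes. The list's median was -2.30 against G1E, -2.31 against 0 h and -0.05 between 0 h and G1E. Mybbp1a was read at 19.4 and 11.7 CPM at 24 h, against 135 and 143 CPM in G1E (-3.17 ± 0.24). Polr1a, the largest subunit of RNA polymerase I, was read at 36.5 and 12.96 CPM at 24 h, against 216 and 211 CPM in G1E (-3.11 ± 0.48). Nolc1, a nucleolar phosphoprotein, was read at 21.1 and 14.1 CPM at 24 h, against 130.3 and 161 CPM in G1E (-3.05 ± 0.24). In each of these genes the G1E libraries lay several times above the 24 h libraries. Ncl, nucleolin, was read at 306 and 246 CPM at 24 h, against 1297 and 1298 CPM in G1E (-2.23 ± 0.15). The smallest difference was that of Pes1 (-0.64 ± 0.16), whose call was lost without G1E replicate 2 (adjusted p = 0.0630).

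DNA replication was lower in 20 of 22 genes, beside 31.9% of all genes, with a median of -1.19. Cdt1, which licenses origins, was read at 10.4 and 4.78 CPM at 24 h, against 76.8 and 97.1 CPM in G1E (-3.52 ± 0.34). Uhrf1, which maintains DNA methylation, was read at 37.1 and 22.2 CPM at 24 h, against 212 and 303 CPM in G1E (-3.12 ± 0.26). The 6 subunits of the MCM helicase were lower by between -0.98 (Mcm5) and -2.13 (Mcm6). Ccne1, cyclin E1, and Cdc6, a licensing factor, were the 2 higher genes (1.47 ± 0.25 and 0.81 ± 0.17). Mitosis ran the other way, with 10 of 19 genes higher than in G1E and 2 lower, beside 30.9% and 31.9% of all genes. The median was 0.54. Nusap1, a spindle protein, was read at 247 and 332 CPM at 24 h, against 60.1 and 53.0 CPM in G1E (2.35 ± 0.21). Tpx2, an activator of Aurora A, was read at 543 and 747 CPM at 24 h, against 179.8 and 133 CPM in G1E (2.05 ± 0.26). Ccna2, cyclin A2, was read at 180.1 and 217 CPM at 24 h, against 53.2 and 62.7 CPM in G1E (1.78 ± 0.18). In all 3 both 24 h libraries stood above both G1E libraries. Cdk1 was lower (-0.93 ± 0.14), and so was Aurkb (-0.50 ± 0.17), whose call was lost without G1E replicate 2 (adjusted p = 0.168), without either 24 h library (0.0651 and 0.0875), with the replicate block (0.0537) and without the expression filter (0.0866). With total counts the mitosis list had 8 higher and 3 lower genes.

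Among genes of cell cycle exit, 9 of 17 were higher than in G1E and 6 lower, beside 30.9% and 31.9% of all genes. Their median was 0.55. With total counts 6 were higher and 6 lower, with a median of 0.18. Btg2, an antiproliferative gene, was read at 367 and 466 CPM at 24 h, against 6.88 and 5.51 CPM in G1E (6.06 ± 0.45). Cdkn1b, the inhibitor p27, was read at 166 and 181 CPM at 24 h, against 27.1 and 21.3 CPM in G1E (2.84 ± 0.27). Cdk6, which drives progenitors through the cycle, was read at 86.03 and 85.96 CPM at 24 h, against 719 and 689.9 CPM in G1E (-3.03 ± 0.24). Ccnd2, cyclin D2, was read at 155 and 70.7 CPM at 24 h, against 647 and 541 CPM in G1E (-2.39 ± 0.31). Each of these 4 genes was called the same way against 0 h. Cdkn1a, the inhibitor p21, was lower than in G1E (-0.76 ± 0.27) and not called against 0 h, and that call was lost without G1E replicate 1 (adjusted p = 0.467), without either 24 h library (0.0754 and 0.104) and without the expression filter (0.0749). In the MYC network, Myc itself was read at 33.2 and 14.8 CPM at 24 h, against 176 and 123 CPM in G1E (-2.64 ± 0.34). Its antagonists Mxd1 (3.199 ± 0.24), Mxd4 (1.61 ± 0.50) and Mxi1 (1.54 ± 0.28) were higher. Mnt, another antagonist, was called lower in the main fit. Its call was lost without G1E replicate 2, where the difference was -0.55, and without 24 h replicate 2 (-0.84). Mxd3 was not called, but DESeq2 called it lower (-0.93, adjusted p = 0.0245). With total counts the network had 2 higher and 4 lower genes instead of 4 and 2, and Mxd4 lost its call (adjusted p = 0.0561), as it did without G1E replicate 2 (0.119) and without 24 h replicate 1 (0.0573).

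Autophagy and organelle clearance was higher in 13 of 18 genes and lower in none, beside 30.9% and 31.9% of all genes. The median was 1.21. Wipi1, which acts early in autophagosome formation, was read at 102 and 183 CPM at 24 h, against 15.2 and 16.5 CPM in G1E (3.17 ± 0.33). Bnip3, a receptor for mitophagy, was read at 45.6 and 56.6 CPM at 24 h, against 6.16 and 6.76 CPM in G1E (2.99 ± 0.33). Pink1, a kinase that marks damaged mitochondria for removal, was read at 48.8 and 54.7 CPM at 24 h, against 11.5 and 12.9 CPM in G1E (2.09 ± 0.43). Bnip3l, the mitophagy receptor of reticulocytes, was higher by 1.11 ± 0.20. Of the kinases that start autophagy, Ulk2 was higher than in G1E (1.45 ± 0.15) already before estradiol (1.14 ± 0.14 at 0 h), and Ulk1 rose against 0 h (0.71 ± 0.15) but was not called against G1E (0.23 ± 0.16), so it was masked. Ulk1 and Ulk2 were chosen after their values were seen.

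Cytokine signalling held both higher and lower genes. Csf2rb2, the beta chain of the mouse IL-3 receptor, was read at 3841 and 3542 CPM at 24 h, against 12.3 and 7.73 CPM in G1E (8.52 ± 0.27). Csf2rb, the beta chain common to the receptors of IL-3, IL-5 and GM-CSF, was read at 3619 and 2765 CPM at 24 h, against 75.3 and 40.5 CPM in G1E (5.78 ± 0.34). These near copies may share reads. Stat5b (1.91 ± 0.15), Cish (1.87 ± 0.26) and Pim1 (1.61 ± 0.20), an effector and targets of the erythropoietin receptor, were higher, while Epor itself, at 26.8 and 24.6 CPM at 24 h, against 30.8 and 19.1 CPM in G1E, did not pass the test (0.04 ± 0.25). Ptpn6, a phosphatase that damps the receptor, and Osm, oncostatin M, were lower (-2.70 ± 0.18 and -3.03 ± 0.24). So were Stat5a, another STAT5 factor, and Socs2. Both calls were lost without G1E replicate 1, where the differences were -0.85 and -0.56, and without 24 h replicate 2 (-0.89 and -0.43). The call on Stat5a was also lost without the expression filter, and that on Socs2 without G1E replicate 2. In all, 6 of 16 were higher and 5 lower, near the 30.9% and 31.9% of all genes, with a median of 0.11 that became -0.25 with total counts.

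In the BCL2 family, 4 of 12 genes were higher than in G1E, near the 30.9% of all genes, and 1 was lower. The median of 0.15 became -0.21 with total counts, which gave 4 higher and 4 lower genes. Bcl2l1, BCL-XL, the survival factor of late red cell precursors, was read at 671 and 451 CPM at 24 h, against 135 and 90.9 CPM in G1E (2.31 ± 0.26). Bid, which promotes cell death, was read at 33.0 and 21.7 CPM at 24 h, against 216 and 250.4 CPM in G1E (-3.09 ± 0.28). Bik and Bok, further death-promoting members, were higher at low levels, Bik by 3.76 ± 0.76 and Bok by a ratio of 51.8 (interval 8.94 to 2082). Bcl2, chosen after its values were seen, was read at 4.77 and 2.33 CPM at 24 h, against 2.62 and 4.66 CPM in G1E, with 44.7, 35.7 and 30.7 CPM at 0 h. Against 0 h it had fallen by a wide margin (-3.38 ± 0.37), and against G1E there was no difference to be called (-0.02 ± 0.36), a masked fall. Its start element showed the same order, at 8.90 and 7.35 CPM at 24 h, against 6.84 and 9.28 CPM in G1E, with 27.8, 31.7 and 27.6 CPM at 0 h (element e882).

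**Figure D4:**
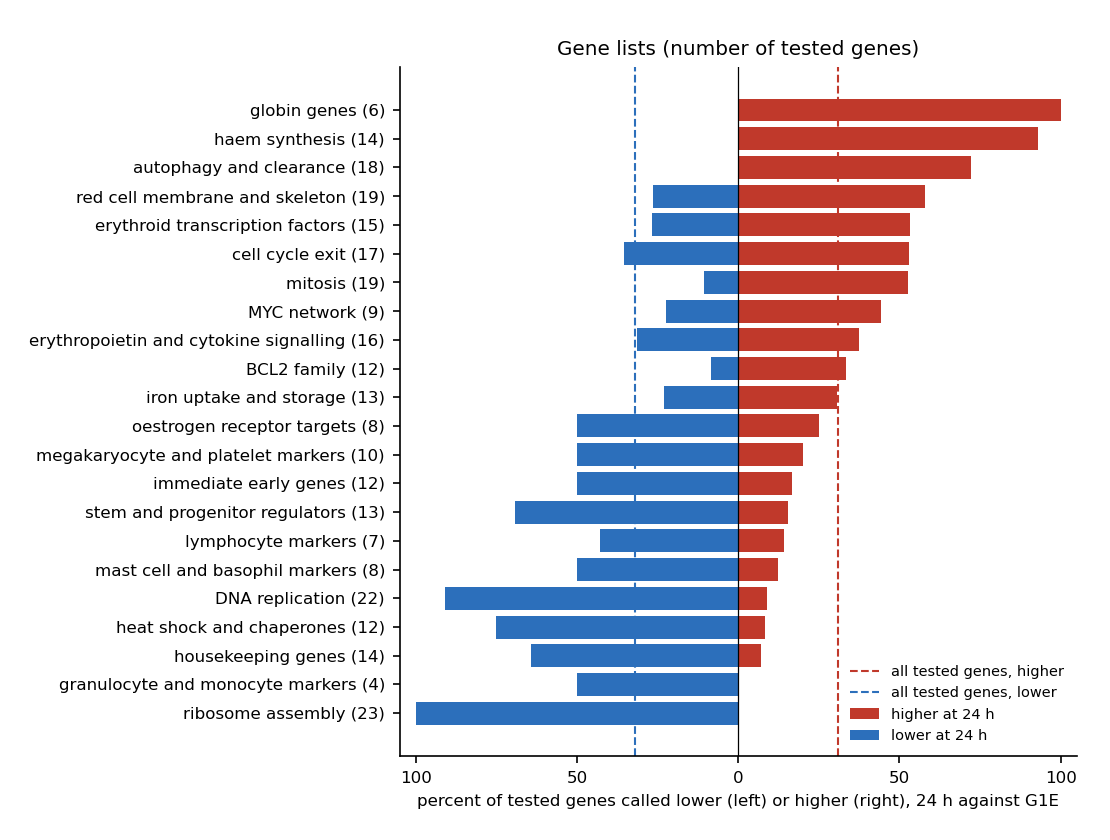
Percent of the tested genes of each list called higher or lower at 24 h than in G1E, with dashed lines at the 30.9% and 31.9% of all tested genes. Globin, haem, autophagy and membrane lists stand above the line for higher calls, and ribosome assembly, DNA replication and chaperones above the line for lower calls.

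Masked changes were also wide outside the lists. Ano3, an anoctamin gene, was read at 2.45 and 1.72 CPM at 24 h, against 1.69 and 1.88 CPM in G1E, with 48.0, 74.4 and 57.9 CPM at 0 h, and Plxdc1 at 3.15 and 2.82 CPM at 24 h, against 2.54 and 8.41 CPM in G1E, with 48.2, 40.1 and 62.5 CPM at 0 h. Both had fallen from 0 h (-4.85 ± 0.40 and -4.07 ± 0.50) and were higher at 0 h than in G1E (5.08 ± 0.41 and 3.22 ± 0.48), and neither was called between 24 h and G1E. Plxdc1, however, was called lower than in G1E without G1E replicate 1 (-1.48, adjusted p = 0.00709) and with total counts (-1.24, adjusted p = 0.0470). Morc4 was read at 3.35 and 2.74 CPM at 24 h, against 0.240 and 0.121 CPM in G1E, with 31.7, 32.4 and 35.2 CPM at 0 h, so it fell with estradiol (-3.44 ± 0.25) and stayed above G1E (3.94 ± 0.30). Among masked rises, Fxyd5 was read at 4.15 and 1.64 CPM at 24 h, against 3.06 and 1.81 CPM in G1E, with 0.428, 0.142 and 0.241 CPM at 0 h, and Plb1 at 1.66 and 3.91 CPM at 24 h, against 2.38 and 1.62 CPM in G1E, with 0.202, 0.284 and 0.344 CPM at 0 h. They had returned to levels that overlapped those of G1E (0.24 ± 0.60 and 0.47 ± 0.49). Fuca2, a fucosidase, rose against 0 h (4.84 ± 0.61) but reached only 0.563 and 0.434 CPM at 24 h, against 4.89 and 3.82 CPM in G1E (-3.13 ± 0.51). Fat1, an atypical cadherin, held 0 reads at 0 h. It was read at 0.0268 and 0.0248 CPM at 24 h, against 11.8 and 9.47 CPM in G1E (-8.61 ± 0.56). Each 24 h library held only 2 reads of Fat1, so its call as a rise against 0 h rests on very few reads. What the levels do show is that Fat1 at 24 h lay far below the parental line.

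Genes that estradiol itself might act on through its own receptor were looked at as a list, since G1E had no estradiol. Of 8 tested oestrogen receptor targets known from breast tissue, 2 were higher than in G1E and 4 lower, beside 30.9% and 31.9% of all genes. Their median was -0.01, and with total counts none of the 8 was higher. Pgr and Tff1 held no read in these 4 libraries, and Greb1 did not pass the test (0.36 ± 0.54). Rara, a retinoic acid receptor, was read at 32.1 and 24.6 CPM at 24 h, against 85.8 and 83.9 CPM in G1E (-1.58 ± 0.25), and Igfbp4 at 0.0134 and 0.0248 CPM at 24 h, against 0.200 and 0.676 CPM in G1E, lower by a ratio of 17.6 (interval 5.67 to 88.3).

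Iron uptake and storage was called higher in 4 of 13 genes and lower in 3, shares at or under the 30.9% and 31.9% of all genes, with a median of 0.21 that became -0.16 with total counts. Tfrc, the transferrin receptor, was read at 1161 and 1495 CPM at 24 h, against 389 and 302 CPM in G1E (1.94 ± 0.20). Ncoa4, which releases iron from ferritin, was read at 284 and 281 CPM at 24 h, against 82.9 and 53.5 CPM in G1E (2.05 ± 0.33). Tfr2, the second transferrin receptor, was read at 19.3 and 26.2 CPM at 24 h, against 236 and 263 CPM in G1E (-3.46 ± 0.24). The ferritin chains Fth1 and Ftl1 did not pass the test (-0.02 ± 0.40 and -0.44 ± 0.48).

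The next lists stand beside 31.9% of all genes lower and 30.9% higher. Immediate early genes were lower in 6 of 12 and higher in 2, with a median of -1.08. Fosl1, an AP-1 subunit, was read at 0.576 and 0.396 CPM at 24 h, against 8.14 and 22.7 CPM in G1E (-4.98 ± 0.51). Ier2 was read at 1.74 and 1.67 CPM at 24 h, against 23.02 and 29.9 CPM in G1E (-3.95 ± 0.24). Jun, another AP-1 subunit, was higher, at 2.04 and 5.75 CPM at 24 h, against 0.230 and 0.217 CPM in G1E (4.105 ± 0.55). Chaperones and heat shock genes were lower in 9 of 12 and higher in 1, with a median of -1.30. Hsp90ab1 was read at 25.8 and 18.7 CPM at 24 h, against 199 and 222 CPM in G1E (-3.24 ± 0.21), and the mitochondrial Hspd1 was read at 42.3 and 41.7 CPM at 24 h, against 269 and 267 CPM in G1E (-2.67 ± 0.35). Of 14 housekeeping genes, 9 were lower and 1 higher, with a median of -1.21. Pgk1 was read at 10.2 and 4.001 CPM at 24 h, against 60.5 and 67.2 CPM in G1E (-3.17 ± 0.64). Gusb was read at 15.7 and 10.4 CPM at 24 h, against 90.4 and 87.0 CPM in G1E (-2.76 ± 0.31), and Hprt was read at 47.7 and 39.9 CPM at 24 h, against 124 and 152 CPM in G1E (-1.65 ± 0.16). Tbp, by contrast, was level, at 49.1 and 55.3 CPM at 24 h, against 50.01 and 56.0 CPM in G1E (-0.02 ± 0.15).

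At elements, 8590 of 35158 (24.4%) were called higher at 24 h than in G1E and 11265 (32.0%) lower, and 80.1% had levels that did not overlap. Of 7984 late rises of elements (22.7%), 6408 (80.3%) held, and of 10386 late falls (29.5%), 8004 (77.1%) held. The masked rises numbered 464 and the masked falls 1004, and 712 higher and 1918 lower elements were carried. The shares differed with the location of the element. At gene starts, 35.4% of 12973 elements were higher and 18.2% lower, while between genes 13.6% of 10044 were higher and 47.8% lower. Sense elements inside genes had 24.0% higher and 32.3% lower of 7943, and antisense elements 17.3% and 36.8% of 4198. Among whole peaks between genes, 65.8% of 4024 were lower, with a median of -3.07.

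Part of the loss between genes was there before estradiol. Between 0 h and G1E, 7.18% of all elements were called higher and 12.1% lower. In the same comparison, 21.5% of the intergenic elements were lower and 7.80% higher, beside 4.54% lower and 6.97% higher at gene starts. Of the 4798 intergenic elements lower at 24 h than in G1E, 3196 were held falls and 1031 were carried.

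**Figure D5:**
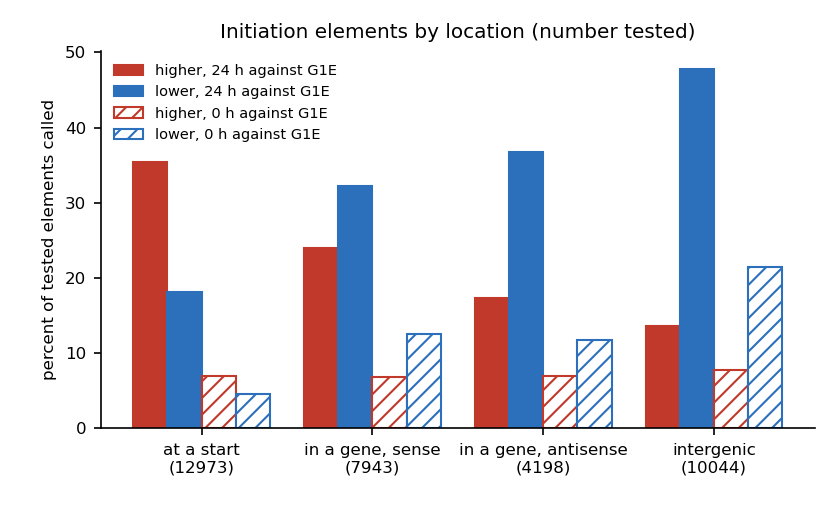
Percent of elements called higher or lower by location, with solid bars for 24 h against G1E and hatched bars for 0 h against G1E. Intergenic elements have the largest share of lower calls in both, 47.8% and 21.5%, and starts the largest share of higher calls at 24 h, 35.4%.

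Named elements lay both at genes described above and at other sites. The start element of Srxn1 (chromosome 2, 151930450 to 151932651, mm9) was read at 172 and 144 CPM at 24 h, against 0 CPM in both G1E libraries, at least 3136-fold higher (element e3460). An element inside Macf1 (chromosome 4, 123340500 to 123342801) was read at 53.5 and 53.0 CPM at 24 h, against 0 CPM in both G1E libraries, with 10.9, 9.60 and 7.83 CPM at 0 h, at least 1060.0-fold higher (element e6211). Of the losses, the start element of Lincenc1 was read at 0 CPM in both 24 h libraries, against 105.1 and 54.6 CPM in G1E, at least 1853-fold lower (element e20125). A whole peak between Hmgn2 and Rps6ka1 (chromosome 4, 133465700 to 133467351) was read at 0 CPM in both 24 h libraries, against 74.9 and 58.9 CPM in G1E, at least 1553-fold lower (element e6509). Both of these losses were already there at 0 h. By contrast, an intergenic peak near Klhl1 (chromosome 14, 97388100 to 97390801) was read at 0 CPM in both 24 h libraries, against 10.3 and 8.55 CPM in G1E, with 7.60, 6.59 and 7.997 CPM at 0 h, at least 218-fold lower (element e21153), a fall that held. A peak inside Bcor (chromosome X, 11703700 to 11708001) was read at 6.23 and 5.43 CPM at 24 h, against 0.448 and 0.398 CPM in G1E, with 62.2, 56.9 and 39.6 CPM at 0 h (element e26368), so it fell with estradiol and still stood above G1E.

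Start elements and gene bodies mostly moved the same way. Of 3340 genes with a single whole-peak start element, 1195 were higher in both measures and 690 lower in both, and 461 were called in neither. The measures were called in opposite directions in 55 genes, 49 of them with a higher start and a lower body. A start was higher with its body not called in 341 genes, and a start was not called with its body lower in 362. Sox6, chosen after its values were seen, was one of the 49. An element at a listed Sox6 start (chromosome 7, 123174400 to 123178101, mm9) was read at 6.26 and 3.91 CPM at 24 h, against 0.135 and 0 CPM in G1E, with 37.7, 27.8 and 18.8 CPM at 0 h (5.67 ± 0.60; element e11348), while the gene body of Sox6 was read at 10.2 and 8.65 CPM at 24 h, against 114 and 109 CPM in G1E (-3.56 ± 0.18). Reads at 1 listed start need not belong to the start that fills the gene body. The start element of Gata1 was not called (145 and 162 CPM at 24 h, against 171 and 121 CPM in G1E; 0.07 ± 0.28; element e26317).

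Neighbouring genes differed together in some stretches of chromosome. Over 218 windows of 10 Mb with at least 15 tested genes, the median gene was between -1.58 and 1.44 against G1E (SD of the medians 0.408), and between -0.70 and 0.66 for 0 h against G1E (SD 0.178). In 15 windows the line difference at 0 h was over 0.4 in size. On chromosome 4, the window from 110 to 120 Mb (52 genes) had a median of -0.13 against G1E, with 0.49 against 0 h and -0.56 for 0 h against G1E. There the rise of the median with estradiol was offset by the line difference. In it 8 single genes were masked, beside 1.44% masked rises and 2.33% masked falls over all genes. The next window, from 120 to 130 Mb (92 genes), had -0.46, 0.08 and -0.50, so its median already differed before estradiol. Between 24 h and 0 h, 30 of its 92 genes were called higher and 29 lower, near the 29.0% and 30.7% of all genes. It also held 8 masked genes and 9 carried genes, beside 2.22% carried higher and 4.15% carried lower over all genes. On chromosome 2 from 160 to 170 Mb (62 genes) the medians ran the other way, at 0.78, 0.16 and 0.54. Leaving all genes of the 15 windows out of the counts left 4089 higher and 4190 lower genes.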

How the data were processed

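PRO-seq counts of 9 libraries in 4 groups (G1E, and G1E-ER4 at 0 h, 13 h and 24 h) were used, with groups taken from the labels. The deposited tables hold raw read counts per gene body and per dREG peak, per the file headers. The aligner BWA and the build mm9 come from the submitters' processing notes. The sources used here do not give the counting tool, the annotation or the use of strand, so overlapping genes, antisense genes and near-identical copies are uncertain. PCR copies cannot be told from separate molecules in these counts.

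Counts were fitted in R 4.3.3 with edgeR 4.0.16: TMM scaling, the default expression filter (13825 genes and 35158 elements kept), 4 group means over all 9 libraries (5 residual degrees of freedom) and the robust quasi-likelihood test. P-values were adjusted by Benjamini-Hochberg over all features, with a threshold of 0.05. The ± values are SE derived from the F statistic. Levels in CPM were computed from the counts with the TMM factors. Where a group held no read, a fold was counted against 3 reads over the group, and where it held 1 to 3 reads, a ratio with its 95% counting interval is given. The script was tested on simulated data.

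Genes named were the 10 largest differences each way among called genes whose groups did not overlap and whose counts averaged 50 or more, the 5 largest each way of each class, up to 4 genes of each list by the size of the difference, and a few fixed genes. Members and lists were chosen with earlier results of these data known. Other list members named by their values, in ranges or as exceptions, were chosen after their values were seen. Alternatives were DESeq2 1.42.0, other scalings and filters, a larger fold, the replicate number as a block, whole peaks alone, 5 Mb windows and leaving out each library. A few named genes and list members are not reported here by name, and they stay in the fits and in the counts over lists.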

Additional observations from a re-analysis of the deposited data

How the results depend on the processing

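Over the alternatives, 4645 of 4838 values for 323 named genes and list members kept their direction and side of the threshold, 129 (43 genes) lost their call and 64 (29 genes) gained one. Of 420 values for 25 named elements, 413 kept both and 7 (4 elements) gained a call. With total counts, 2219 rises held and 132 were masked. Counting only differences of at least 1 on the log2 scale left 2736 genes higher, 1930 held rises and 102 masked rises. Whole peaks fitted alone gave 3773 higher and 4868 lower of 11034 tested, with a median of -0.37. In the main fit 3141 of 10882 whole peaks were higher and 5006 lower, with a median of -0.59. The split of whole peaks thus depends on the fit. Replicate numbers shared by 24 h and G1E were not taken as pairs, since no label gives a shared culture or day. Deviations from the group means correlated at 0.162, a single value, because with 2 libraries a group both pairs must give the same one. With the replicate number as a block, 119 rises were masked, and 4013 genes were higher and 4242 lower, with 9056 elements higher and 11608 lower. Leaving out 1 library at a time gave 3515 to 4440 genes higher and 3773 to 4495 lower, 2857 to 3605 held rises and 2683 to 3420 held falls, 88 to 212 masked rises and 171 to 321 masked falls, 465 to 971 carried genes, and 6644 to 8954 elements higher and 8635 to 12059 lower. DESeq2 called 4414 genes higher and 4412 lower. With 5 Mb windows, 18 had a line difference over 0.4. The fit of only 24 h and G1E was not run for classes that need 0 h. Depth limits low genes most in G1E replicate 2.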
